A study of Oryza sativa with 12 samples.

Results

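The comparison described here is that of osnadk1 leaves with wild-type (WT) leaves of rice under normal growth, 6 of the 12 arrays of the series. osnadk1 is a single T-DNA insertion line of cultivar Dongjin in which the insertion lies in an intron of OsNADK1, and WT is its Dongjin parent. All plants were 2.5 months old, and the youngest fully expanded leaf was sampled on day 0, when the soil held 47.3% moisture. The remaining 6 arrays were of osnadk1 and WT after 15 days without water, at 8.5% soil moisture. They entered to estimate the spread, to choose which probe sets were tested and listed, and for values set side by side. Each of the 4 groups had 3 arrays that the labels call biological replicates. The labels also mark every WT array as a re-analysis, and they do not say how many plants or pots stand behind an array. Because only 1 insertion line was hybridised, an effect of losing OsNADK1 and any other difference carried by that line cannot be told apart.

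NAD kinases phosphorylate NAD to NADP, and the NADP pool is in turn reduced to NADPH, the electron donor of biosynthesis, of the ascorbate-glutathione cycle and of the oxidases that make reactive oxygen species. Plants hold several NAD kinases in different compartments, and OsNADK1 is a cytosolic one. In leaves these cofactors stand between photosynthesis, carbon metabolism and stress signalling, in which calcium sensors, jasmonate, auxin and abscisic acid pathways and DREB, WRKY, NAC and MYB transcription factors take part.

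Each sample was hybridised to a rice-genome oligonucleotide array. A probe set on it gives 1 log2 signal for a transcript, or for several that match its probes. A difference of 1 is a 2-fold change. Of 57194 probe sets other than controls, 32064 reached the median of their own array on at least 3 of the 12 arrays and were tested. A probe set is said to be called, higher or lower, where its limma p adjusted over all 32064 was under 0.05. The error given with a difference is its standard error in that limma fit, n = 3 arrays against 3, with the spread estimated over all 12 arrays.

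The 6 arrays fell into sets that cut across genotype. Going by a prefix in their labels, osnadk1 replicates 1 and 2 and WT replicate 1 form set A, and osnadk1 replicate 3 and WT replicates 2 and 3 form set B. What the prefix stands for is not given in the sources used here. Between arrays of the same set the correlation across tested probe sets was 0.928 to 0.958, and between sets 0.884 to 0.895, whichever genotype was paired. Of the probe sets tested, 7912 (24.7%) differed between the sets under normal growth, 2967 higher (9.25%) and 4945 lower (15.4%) in set A, against 519 (1.62%) under drought. CCA1, a morning-phased factor of the circadian clock, was at 13.34, 13.02 and 13.79 on the set A arrays and at 8.53, 7.43 and 7.31 on those of set B. The genotype difference was therefore taken within each set and averaged, that is, as the mean of osnadk1 1 and 2 minus WT 1 and of osnadk1 3 minus WT 2 and 3. Across all tested probe sets, which share their arrays within a set, these differences had a Pearson correlation of -0.12 and a Spearman correlation of -0.16.

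OsNADK1 itself was measured first. Its probe set read 3.96, 5.16 and 4.78 in osnadk1 replicates 1 to 3 and 10.27, 9.55 and 9.55 in WT replicates 1 to 3. All osnadk1 arrays lay below their own array's median, and all WT arrays lay far above it, with no overlap. The difference was -5.24 ± 0.38 (adjusted p = 0.000435), -5.70 within set A and -4.77 within set B. With the osnadk1 arrays held at their medians, OsNADK1 was at least 22.7-fold lower. Of the 20 annotated genes nearest to it on chromosome 1, 10 on either side, 8 were tested and 0 were called. Their differences ran from -0.39 to 0.58, and their smallest adjusted p was 0.461.

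Across the leaf transcriptome, 99 probe sets were called (0.309% of those tested), 35 higher in osnadk1 (0.109%) and 64 lower (0.2%). The median difference over all tested probe sets was 0.00. Of those called, 33 higher and 53 lower ones differed at least 2-fold. The osnadk1 and WT arrays overlapped in 5 of the higher and 5 of the lower ones, whereas 2494 tested probe sets (7.78%) had no overlap, higher in 3.56% and lower in 4.22%. All 99 had the same sign in set A and in set B, which selection on the mean of both largely fixes, where 20.9% of all tested probe sets were below 0 in both and 21.8% above 0 in both. Of the 99, 35 also differed between the sets. The study used looser thresholds, a 2-fold change with an unadjusted p under 0.05. Applied to the limma p of the fit used here, they passed 1033 probe sets (3.22%), 452 higher (1.41%) and 581 lower (1.81%). This is not the count of the study, which rests on its own test. A RefSeq gene could be given to 15 of the higher and 47 of the lower ones called.

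**Figure D1:**
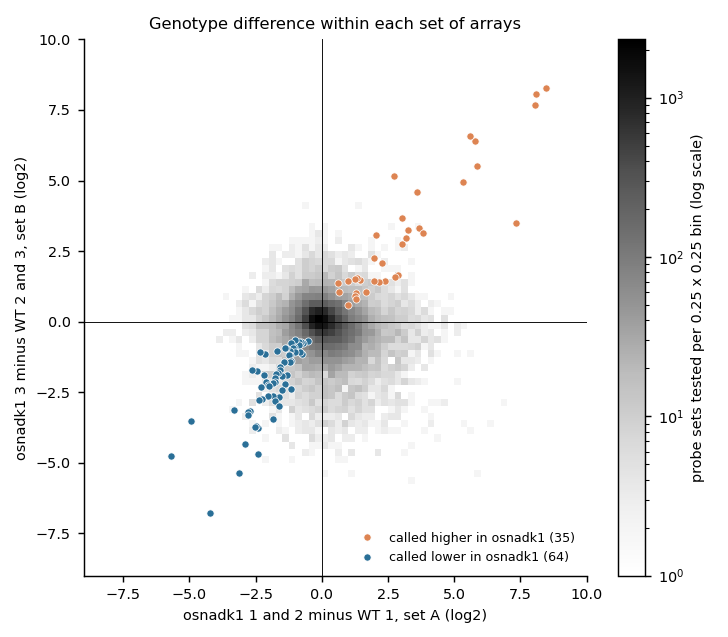
Genotype difference within set A (osnadk1 1 and 2 minus WT 1, horizontal, log2) against that within set B (osnadk1 3 minus WT 2 and 3, vertical, log2). Grey squares count all 32064 tested probe sets on a log scale, and coloured points are the 35 called higher and 64 called lower, which lie at the upper right and lower left.

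The number of calls depended on how the sets were handled. Without any set term 45 probe sets were called (19 higher, 26 lower), of which 43 were among the 99. With the set A arrays alone 1206 were called and with the set B arrays alone 639, and 43 of the 99 were called in both. Set A holds 1 WT array and set B 1 osnadk1 array of normal growth, so in these fits the lone array is assumed to vary like the other groups, and the 99 were themselves selected on the mean of these differences. Single arrays of normal growth also moved the count, to 35 without osnadk1 replicate 2, 1782 without osnadk1 replicate 3, 431 without WT replicate 1, 56 without WT replicate 2 and 54 without WT replicate 3. Without osnadk1 replicate 1 the count was 81. Leaving out osnadk1 replicate 3 took away the only osnadk1 array of set B, so the difference came from set A alone. Without WT replicate 1 the difference came from set B alone. In all, 30 of the 99 stayed called whichever of the 12 arrays was left out. An exact permutation test of 3 arrays against 3 cannot go below p = 0.1, so no such test was used for calls.

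Calcium sensors were among the genes lower in osnadk1. OsCCD1, a small EF-hand calcium-binding protein (Os06g0683400), read 12.47, 11.28 and 10.40 in osnadk1 and 14.35, 14.16 and 14.07 in WT. The WT arrays lay close together, the osnadk1 arrays spread widely and entirely below them, and the difference was -3.09 ± 0.39 (adjusted p = 0.0123). OsCML16, a calmodulin-like protein (Os01g0135700), read 10.81, 9.69 and 10.92 in osnadk1 and 11.99, 12.84 and 12.67 in WT. It was lower by a like amount in set A (-1.74) and set B (-1.84), giving -1.79 ± 0.25 (adjusted p = 0.0233). Among 25 tested calmodulins and calmodulin-like genes OsCML16 was the only one called, against the background of 0.309%. The median of the list was -0.20, with 17 of 25 below 0. CML31 stood just outside the threshold at -3.32 ± 0.60 (adjusted p = 0.0591), with osnadk1 arrays at 8.66 to 11.56 and WT arrays at 12.16 to 13.30. CML15 had -3.09 ± 0.65 (adjusted p = 0.114) and CML14 -1.49 ± 0.42 (adjusted p = 0.253), both without overlap between genotypes. Of 44 tested calcium-dependent kinases, CBL-interacting kinases and CBL proteins, which act downstream of calcium, 0 were called, and their median was 0.00.

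Several genes for transcription factors and zinc finger proteins were called lower, OsDREB1B foremost. This factor of the DREB family, known for activating cold- and dehydration-responsive genes, read 8.39, 7.76 and 5.61 in osnadk1 and 11.22, 11.34 and 10.60 in WT. Every osnadk1 array was below every WT array, the set B array furthest, and the difference was -4.25 ± 0.64 (adjusted p = 0.027, and 0.108 without a set term). Its relatives DREB1A (-2.34 ± 0.65, adjusted p = 0.246) and DREB1G (-2.13 ± 0.93, adjusted p = 0.542) were not called, and the median of 8 tested DREB and other ERF genes was -0.29. The MYB gene taken up by the study as OsMYB (Os01g0298400) read 4.22, 4.88 and 5.25 in osnadk1 and 6.39, 8.37 and 9.01 in WT. The difference was -2.63 ± 0.43 (adjusted p = 0.0408, and 0.292 without a set term), and the osnadk1 arrays were close to or below their medians.

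ISAP1, a stress-inducible A20/AN1 zinc finger protein also named SAP1, read 11.03, 10.73 and 9.11 in osnadk1 and 12.63, 12.03 and 11.85 in WT. Its difference was -2.29 ± 0.26 (adjusted p = 0.00672), wider in set B (-2.83) than in set A (-1.75), and without a set term it was not called (adjusted p = 0.283). Of 12 tested genes of its family ISAP1 alone was called. OsSAP17 (-2.52 ± 0.50, adjusted p = 0.09) and OsSAP11 (-1.82 ± 0.36, adjusted p = 0.0929) came next and did not overlap, and the family median was -0.29. A gene for a no apical meristem (NAM) domain protein, the domain that defines NAC factors (Os01g0675800), read 8.31, 8.36 and 7.57 in osnadk1 and 10.10, 9.57 and 9.57 in WT. It was lower by 1.77 to 2.00 within the sets, with a difference of -1.88 ± 0.18 (adjusted p = 0.00265, and 0.082 without a set term). Genes listed with a GATA zinc finger (Os02g0806300, -1.65 ± 0.22, adjusted p = 0.016) and an AT-hook DNA-binding motif (Os08g0118000, -1.38 ± 0.20, adjusted p = 0.0234) were lower too.

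Lists of the named families around these factors were also read. RefSeq synonyms name only some members of each, so the lists are partial and their medians hold for the listed genes only. They do not hold Os01g0675800, OsMYB or the WRKY and NAC genes that the study took to qRT-PCR. Of 7 listed and tested NAC genes 0 were called, 6 were below 0 and the median was -1.21 (-1.07 in set A, -0.59 in set B). NAC067 came nearest, at -1.42 ± 0.26 (adjusted p = 0.0604). Among 6 listed and tested WRKY genes, factors of defence and stress responses, 0 were called and the median was -0.13. OsWRKY21 (-3.10), OsWRKY42 (-2.30) and OsWRKY70 (-1.88) are not in that median. OsWRKY71 had -1.72 ± 0.32 (adjusted p = 0.0705) and OsWRKY24 -1.26 ± 0.41 (adjusted p = 0.36). The 10 MYB genes of the list, which leaves out the called OsMYB, had a median of 0.01 with 0 called, and MYB4 had the smallest p of the list (-2.16 ± 0.55, adjusted p = 0.199).

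**Figure D2:**
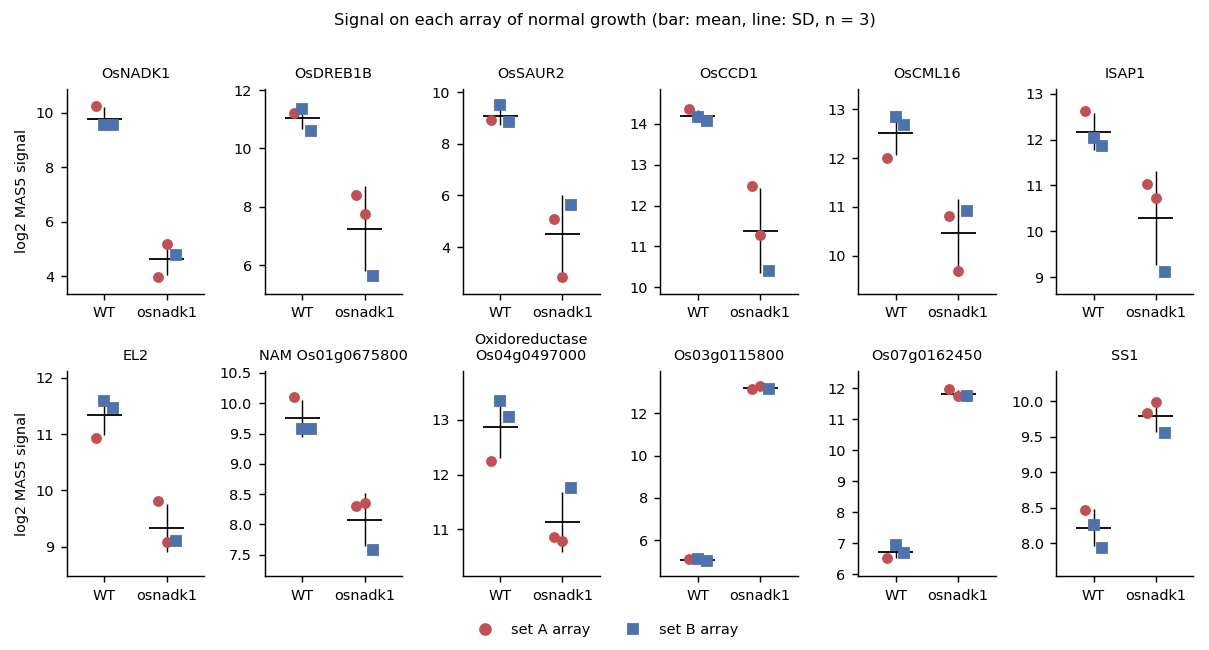
Log2 MAS5 signal of 12 named probe sets on the 6 arrays of normal growth, with WT on the left and osnadk1 on the right of each panel. Circles are set A arrays, squares are set B arrays, horizontal bars are means and vertical lines SDs (n = 3), and in no panel do the genotypes overlap.

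The study took 10 genes with a reported part in drought tolerance to qRT-PCR and presented them with the array results of these samples, so their direction here is not taken as independent evidence. Of these, 5 were called, all lower, namely OsDREB1B, OsMYB, OsCML16, OsCCD1 and OsSAUR2. Of all tested probe sets 0.309% were called and 0.2% called lower. The 10 genes were presented with these same array results, so their share is not read as a result. OsSAUR2, a small auxin-up RNA that marks the early auxin response, read 5.10, 2.82 and 5.64 in osnadk1 and 8.92, 9.50 and 8.84 in WT. The genotypes were far apart, and the difference was -4.24 ± 0.60 (adjusted p = 0.0231). For this probe set osnadk1 replicates 1 and 2 lay below their array medians and replicate 3 slightly above, where signals are noisy. The auxin repressors of the Aux/IAA family had 0 called of 20 tested and a median of -0.17, with IAA6 at -1.18 ± 0.26 (adjusted p = 0.133). The other 5 genes did not pass the test. OsWRKY21 read 6.98, 5.48 and 6.15 in osnadk1 and 9.78, 9.60 and 7.99 in WT (-3.10 ± 0.57, adjusted p = 0.0637). OsWRKY42 had -2.30 ± 0.48 (adjusted p = 0.11) and OsWRKY70 -1.88 ± 0.51 (adjusted p = 0.239), both without overlap. For OsWRKY42, osnadk1 replicates 1 and 2 lay below their array medians. In OsNAC9 the genotypes overlapped, with 11.44, 11.38 and 9.20 in osnadk1 and 12.34, 11.78 and 10.88 in WT (-1.53 ± 0.31, adjusted p = 0.105). OsRSUS1, a sucrose synthase gene, went opposite ways in the sets, 1.66 in set A and -1.10 in set B, for 0.28 ± 0.54 (adjusted p = 0.927). A further OsRSUS1 probe set had -0.91 ± 0.38 (adjusted p = 0.523).

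Further lower genes were called singly. EL2, known in rice as an early elicitor-induced gene for a cyclin-dependent kinase inhibitor, was called on both of its probe sets. The brighter one read 9.82, 9.08 and 9.10 in osnadk1 and 10.94, 11.58 and 11.47 in WT (-1.96 ± 0.24, adjusted p = 0.0103), and the dimmer one had -2.14 ± 0.24 (adjusted p = 0.00672). A gene listed as harpin-inducing (Os04g0685300), a name given to membrane proteins of pathogen responses, read 11.77, 10.72 and 11.29 in osnadk1 and 13.25, 13.72 and 13.46 in WT. WT exceeded osnadk1 by about the same in either set, and the difference was -2.15 ± 0.30 (adjusted p = 0.0223). RING finger proteins, many of which are ubiquitin ligases, were represented by RHC2A (Os01g0972000, -1.94 ± 0.22, adjusted p = 0.00672) and by Os02g0681200 (-1.81 ± 0.21, adjusted p = 0.00713).

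JAZ proteins repress jasmonate-responsive transcription and are themselves induced by jasmonate. On 1 of its probe sets JAZ4 read 8.50, 8.31 and 8.00 in osnadk1 and 9.43, 9.16 and 8.98 in WT. That probe set was called lower (-1.05 ± 0.16, adjusted p = 0.0298) and lost the call without a set term (adjusted p = 0.75). The brighter JAZ4 probe set, with overlapping genotypes, had -0.44 ± 0.12 (adjusted p = 0.252). Taking the brightest probe set of each gene, 0 of 13 JAZ genes were called, 12 were below 0, and the median was -0.55 (-0.64 in set A, -1.03 in set B). At an unadjusted p under 0.05, 7 were lower, where 4.16% of all tested probe sets were. JAZ10, for example, read 9.83, 8.89 and 9.07 in osnadk1 and 11.15, 12.06 and 10.69 in WT (-2.05 ± 0.46, adjusted p = 0.138). JAZ5 had -1.51 ± 0.32 (adjusted p = 0.114), JAZ13 -2.72 ± 0.64 (adjusted p = 0.151) and JAZ6 -0.55 ± 0.13 (adjusted p = 0.172), and JAZ2 was the exception at 0.96 ± 0.27 (adjusted p = 0.26). Jasmonate synthesis genes had a median of -0.07 with 0 of 13 called. AOS, allene oxide synthase, had -2.79 ± 0.53 (adjusted p = 0.0733), but its signal also differed by 2.49 between the sets and its genotypes overlapped.

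Signalling enzymes were called singly. OsPP2C32, a type 2C protein phosphatase, read 10.18, 9.75 and 9.55 in osnadk1 and 11.55, 11.54 and 10.98 in WT, a difference of -1.65 ± 0.22 (adjusted p = 0.016). It was the only call among 53 tested genes of its family, whose median was -0.04. Kinases listed as APK1A (Os06g0202900, -1.0 ± 0.14, adjusted p = 0.0207) and as a MAP3K (Os11g0678000, -0.97 ± 0.15, adjusted p = 0.027) were lower by about 2-fold. In 17 tested MAP kinase and MAP kinase kinase genes 0 were called and the median was -0.14, with MPK3 at -1.04 ± 0.33 (adjusted p = 0.336). A Rab11B GTPase of vesicle traffic (Os01g0667600, -1.16 ± 0.13, adjusted p = 0.00827) and a src2-like protein (Os01g0934100, -1.43 ± 0.21, adjusted p = 0.0241) were lower as well. Without a set term the calls of APK1A (adjusted p = 0.177), the MAP3K (0.0904) and the src2-like gene (0.0635) were lost.

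Of the genes tied by name to redox chemistry, only a few were called. A gene listed as NADP-dependent oxidoreductase P1 (Os04g0497000) read 10.86, 10.78 and 11.76 in osnadk1 and 12.24, 13.33 and 13.04 in WT. The difference was the same in set A (-1.42) and set B (-1.43), giving -1.43 ± 0.21 (adjusted p = 0.0243, and 0.12 without a set term). A methionine sulphoxide reductase gene (Os03g0136500), of a family that repairs oxidised methionine in proteins, read 9.64, 9.0 and 9.21 in osnadk1 and 10.57, 10.45 and 10.30 in WT (-1.21 ± 0.20, adjusted p = 0.0391). A blue copper protein gene with a plastocyanin-like domain (Os08g0482700) read 8.26, 8.48 and 8.39 in osnadk1 against 11.01, 10.77 and 9.46 in WT (-2.18 ± 0.33, adjusted p = 0.027). Outside redox chemistry, METK3, an S-adenosylmethionine synthetase that makes the main methyl donor, was lower at -1.16 ± 0.17 (adjusted p = 0.0233). Without a set term METK3 (adjusted p = 0.12) and the methionine sulphoxide reductase gene (0.0839) were not called.

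The lists of named redox enzymes, which cover only part of each family and do not hold the genes above, gave 0 calls. The 4 tested NADP-linked dehydrogenases, which make NADPH, had a median of 0.04. Ascorbate peroxidases, catalases, superoxide dismutases and related enzymes numbered 19 tested genes with a median of -0.03, of which 11 were below 0 and 8 above. CatB (-0.35 ± 0.09, adjusted p = 0.189) and APX5 (0.40 ± 0.11, adjusted p = 0.234) had the smallest p and opposite signs. In 32 thioredoxins and glutaredoxins, which reduce protein disulphides, the median was 0.02. GRXS2, at 1.52 ± 0.29 (adjusted p = 0.074), did not overlap between genotypes. The 6 glutathione transferases had a median of 0.11. A transcript not called here can still have changed by less than these arrays resolve, and enzyme activity was not measured by them.

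Other lower genes carry less certain functions. A PRAS-rich protein gene (Os01g0384800) read 10.43, 10.32 and 10.28 in osnadk1 and 12.50, 12.30 and 12.51 in WT, with hardly any spread within a genotype. Its difference of -2.12 ± 0.15 (adjusted p = 0.000435) was -2.12 in set A and -2.13 in set B. A Q-rich domain protein gene (Os06g0133500) was at 9.05, 7.86 and 8.32 in osnadk1 and 11.77, 11.76 and 11.15 in WT (-3.22 ± 0.41, adjusted p = 0.014). Expressed proteins with no described function included Os05g0524100 (-3.04 ± 0.45, adjusted p = 0.0266), Os03g0798600 (-3.08 ± 0.45, adjusted p = 0.0243, and 0.0635 without a set term) and Os01g0714600, whose probe sets had -2.50 ± 0.32 and -2.94 ± 0.39 (adjusted p = 0.0146 and 0.0156). ACT2, an actin gene, was lower by only 0.73 on the log2 scale (SE 0.12, adjusted p = 0.0348, and 0.604 without a set term). OsTPP7, of trehalose synthesis, had -0.95 ± 0.20 (adjusted p = 0.108), and 0 of 9 tested genes of proline and trehalose synthesis were called.

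The probe sets higher in osnadk1 included larger differences and fewer known genes. An expressed protein gene on chromosome 3 (Os03g0115800) led on both of its probe sets. The first read 12.90, 13.07 and 12.58 in osnadk1 and 4.52, 3.62 and 5.01 in WT, whose arrays were all below their medians, so that the signal was at least 189-fold higher (8.37 ± 0.40, adjusted p = 1.36e-05). The second read 13.14, 13.26 and 13.12 in osnadk1 and 5.12, 5.12 and 5.01 in WT (8.07 ± 0.25, adjusted p = 6.29e-07). WT arrays lay near or below their array medians on both probe sets and every osnadk1 array lay far above, alike in both sets. Of the 20 genes nearest to it, a region chosen after these values were seen, 16 were tested and 0 were called, with a median of 0.02. The gene next to it came nearest, at 1.79 ± 0.32 (adjusted p = 0.0539) without overlap.

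Further loci without a gene name were higher in osnadk1. Os07g0162450 read 11.97, 11.75 and 11.74 in osnadk1 and 6.52, 6.94 and 6.68 in WT (5.14 ± 0.21, adjusted p = 4.82e-06). Os02g0772100, a conserved hypothetical gene, had 7.86 ± 1.29 on a probe set whose WT arrays ranged from 0.25 to 5.68 (adjusted p = 0.0409). Its other probe set had 5.70 ± 0.54 (adjusted p = 0.00265). A probe set that the study's annotation gives to Os03g0629800, but that the RefSeq annotation places in a gene on chromosome 6, was at least 40.3-fold higher (adjusted p = 0.00467). Os02g0216200 was at least 6.62-fold higher (adjusted p = 0.0258), and a CW-type zinc finger gene (Os05g0371100) at least 4.51-fold higher (adjusted p = 0.0244). Os11g0632200 (3.50 ± 0.21, adjusted p = 8.87e-05), Os05g0103800 (3.48 ± 0.28, adjusted p = 0.00086) and Os07g0212400 (3.35 ± 0.48, adjusted p = 0.0233) were higher too, without any described function. Without a set term Os02g0216200 (adjusted p = 0.221) and Os07g0212400 (0.0903) were not called.

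Transposon-derived transcripts appeared among the higher probe sets. Os10g0515400, listed as an unclassified transposon protein, read 8.35, 7.99 and 8.34 in osnadk1 and 4.91, 5.14 and 5.02 in WT on 1 probe set and was at least 7.66-fold higher there (adjusted p = 0.0308). The other probe set of this locus had 5.41 ± 0.89 (adjusted p = 0.0422) with WT arrays at 1.43, 5.76 and 5.95, and it was not called without a set term (adjusted p = 0.336). Os05g0498800, also a transposon protein, read 8.72, 8.55 and 8.21 in osnadk1 against 6.27, 6.77 and 6.73 in WT (1.91 ± 0.28, adjusted p = 0.0258). Members of repeated families can share probe sequences, so the copy that gave these signals is uncertain. A receptor-like kinase gene with a DUF26 domain (Os11g0470500), of a plant family of cysteine-rich kinases, was higher by 2.13 ± 0.33 (adjusted p = 0.0317, and 0.149 without a set term).

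SS1 was among the higher genes with a known role. This soluble starch synthase, which lengthens the short chains of amylopectin, read 9.83, 10.00 and 9.55 in osnadk1 and 8.46, 8.25 and 7.94 in WT. The difference was 1.45 in set A and 1.46 in set B (1.46 ± 0.16, adjusted p = 0.00672), and SS1 was the only call among 11 tested genes of starch metabolism, whose median was 0.06. SSII-2 had 0.57 ± 0.14 (adjusted p = 0.171). A gene with a tubulin/FtsZ domain (Os03g0726100) was higher on both probe sets, by 1.79 ± 0.20 (adjusted p = 0.00672) and 1.37 ± 0.18 (adjusted p = 0.0156, and 0.07 without a set term), without overlap on either. A protein with an S1 RNA-binding domain (Os01g0589000) was higher by 1.04 ± 0.15 (adjusted p = 0.0241).

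Of the chaperone genes called, CLPB-M and an HSP70 gene also differed between the sets. CLPB-M, an HSP100 disaggregase of organelles, read 9.51 and 9.76 in osnadk1 and 8.29 in WT within set A, and 8.21 in osnadk1 against 6.80 and 6.55 in WT within set B. Each set showed the same step (1.34 and 1.54), but the genotypes overlapped across sets, and the call (1.44 ± 0.18, adjusted p = 0.0124) was lost without a set term (adjusted p = 0.303). A heat shock cognate HSP70 gene (Os05g0460000) read 12.06, 12.69 and 11.26 in osnadk1 and 11.12, 9.70 and 9.80 in WT (1.38 ± 0.21, adjusted p = 0.0308, and 0.225 without a set term). HSP81-3, of the HSP90 family, had 1.0 ± 0.15 on 1 probe set (adjusted p = 0.0299, and 0.0672 without a set term) and 0.37 ± 0.12 on its brightest (adjusted p = 0.356).

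The heat shock lists had medians above 0 with few calls. In 7 tested HSP90, HSP70 and HSP100 genes 1 was called, 6 were above 0 and the median was 0.37. The 16 small heat shock proteins, which hold unfolded proteins, had 0 called, 14 above 0 and a median of 0.49 (0.79 in set A, 0.17 in set B). HSP18.0 read 12.72, 13.06 and 11.11 in osnadk1 and 9.82, 10.40 and 10.39 in WT (1.90 ± 0.40, adjusted p = 0.114), and HSP24.1 had 1.44 ± 0.34 (adjusted p = 0.158) beside a difference of 3.39 between the sets. Of 20 heat shock factors, which activate these genes, 0 were called, 14 were above 0 and the median was 0.21, with HSF24 at 1.79 ± 0.41 (adjusted p = 0.144) and HSF2 at 1.97 ± 0.62 (adjusted p = 0.335). Unadjusted p under 0.05 was found for 6 factors, 6 small heat shock proteins and 5 of the larger chaperones on the higher side, where 4.89% of all tested probe sets had it.

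Chlorophyll synthesis had 0 called of 11 tested genes, 10 of them above 0 and 8 above 0 in both sets, where 21.8% of all tested probe sets were, with a median of 0.42. GSA, of the early tetrapyrrole steps, read 13.32, 13.09 and 13.10 in osnadk1 and 12.41, 12.69 and 12.68 in WT (0.60 ± 0.14, adjusted p = 0.141). CHLI, a magnesium chelatase subunit, had 0.91 ± 0.26 (adjusted p = 0.263) and PORB 0.59 ± 0.16 (adjusted p = 0.246). Light-harvesting and photosystem genes had 0 called of 8 tested and a median of 0.07, and 18 genes of sucrose metabolism had 0 called and a median of -0.02. Of 7 Calvin cycle genes 0 were called, 5 were below 0, 2 of them at an unadjusted p under 0.05, and the median was -0.07 (0.07 in set A, -0.25 in set B). The 7 circadian clock genes tested had 0 called and a median of 0.01 between genotypes, although 6 of the 7 differed between the sets.

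**Figure D3:**
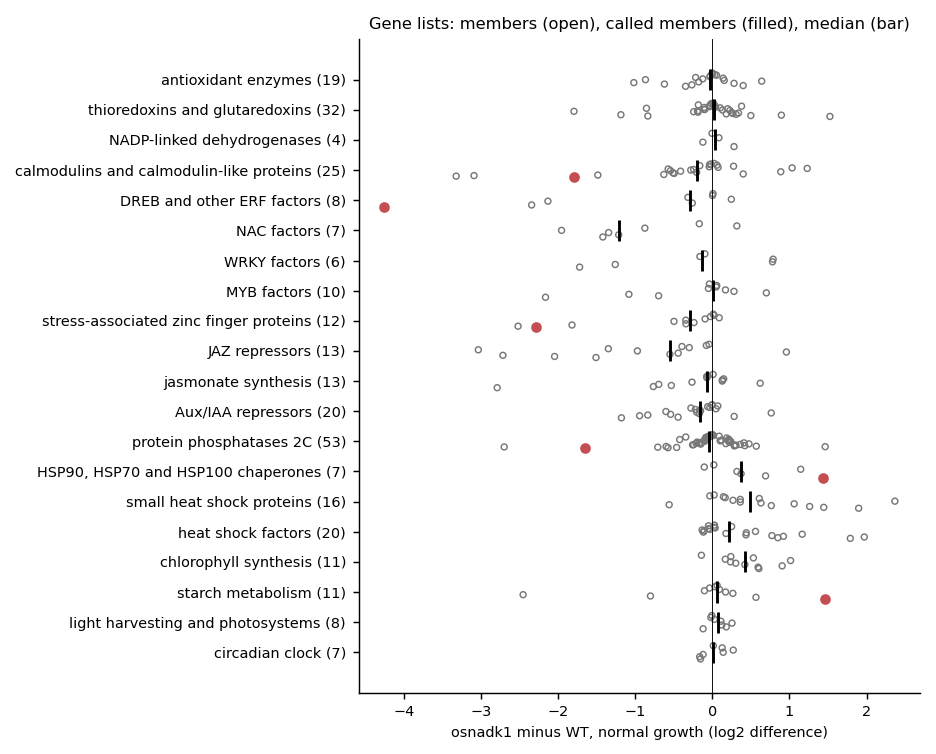
Difference between osnadk1 and WT under normal growth (log2, horizontal) for the tested members of 20 gene lists, with the number tested in brackets. Open circles did not pass the test, filled circles were called, and black bars are list medians, which lay lowest for NAC factors (-1.21) and JAZ repressors (-0.55) and highest for small heat shock proteins (0.49).

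Markers of leaf and of other tissues were compared with the array medians. Of 9 leaf mesophyll markers (rubisco and photosystem genes) 8 were above the array median on all 6 arrays, and the mean log2 signal was 12.74 to 13.91 in osnadk1 and 12.82 to 13.63 in WT. The mean over 9 root markers was 6.00 to 6.33 in osnadk1 and 5.68 to 6.51 in WT, over 31 MADS-box genes, many of which act in flowers, 5.20 to 5.67 and 5.57 to 5.76, and over 15 markers of dividing cells 4.30 to 4.65 and 4.46 to 4.99. Over 15 genes of secondary walls and vasculature the array mean ranged from 4.73 to 5.49 in osnadk1 and from 4.77 to 6.30 in WT. Of these, 8 were tested, and their median difference between osnadk1 and WT was 1.24 in set A and -2.06 in set B. Above the median on all 6 arrays were also 4 of the root, 11 of the MADS-box, 3 of the dividing-cell and 3 of the secondary-wall genes. In these marker lists 0 tested genes were called. A lower level in bulk leaf can mean fewer cells of a type or less RNA per cell, which cannot be told apart here.

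The same probe sets were read under drought from separate arrays but in the same fit. Both conditions share the spread estimated for a probe set, so calls in both are not independent. Under drought 30 of all tested were called (0.0936%), 18 higher (0.0561%) and 12 lower (0.0374%). Of the 35 called higher under normal growth, 28 were above 0 under drought and 10 were called there too. Of the 64 called lower, 54 were below 0 and 3 were called there too, namely OsNADK1 (-4.50 ± 0.38, adjusted p = 0.00123), METK3 (-1.82, adjusted p = 0.00206) and Os04g0634800 (-1.09, adjusted p = 0.0206). The higher group had a median difference of 2.25 in normal leaves and 1.43 in droughted ones, the lower group -1.85 and -0.73. A group selected on its normal-growth values tends to be larger there, so nothing is read from this. OsDREB1B was at -1.81 under drought (adjusted p = 0.402), OsSAUR2 at -0.50 (adjusted p = 0.898) and SS1 at 0.25 (adjusted p = 0.724), whereas Os03g0115800 was at 8.21 and 7.99. The interaction of genotype with drought called 0 probe sets by limma, with a smallest adjusted p of 0.105, and 2256 had an unadjusted p under 0.05. No difference listed here can therefore be called particular to normal growth.

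**Figure D4:**
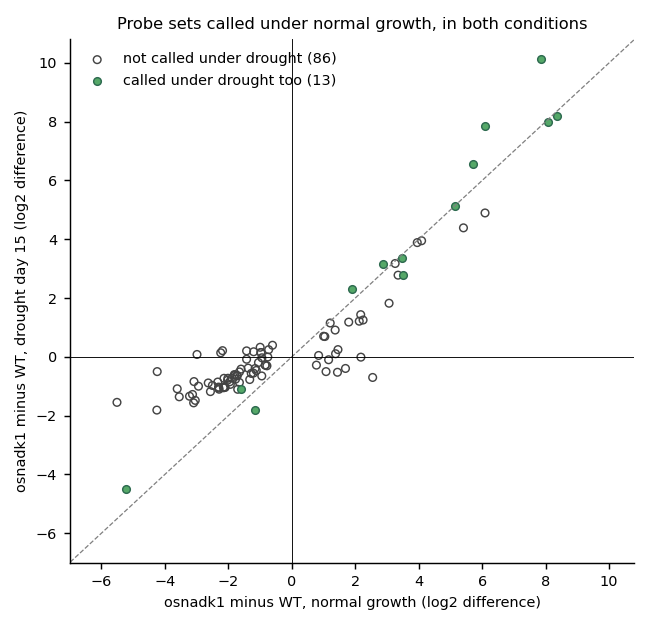
Difference between osnadk1 and WT (log2) under normal growth (horizontal) and on drought day 15 (vertical) for the 99 probe sets called under normal growth. Filled points, 13 in all, were called under drought too and the dashed line marks equal differences. OsNADK1 lies at -5.24 and -4.50, and the upper Os03g0115800 point at 8.37 and 8.21.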

How the data were processed

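Leaf RNA was hybridised to Affymetrix rice-genome arrays. The authors deposited 1 table of log2 MAS5 signal per probe set (processing notes name MAS5, whose version is not given in the sources used here). On the linear scale every array had a 2% trimmed mean of 500.07 to 500.08, so global scaling had been applied, and MAS5 gives noisy values for dim probe sets. The deposited log2 values were used as they stand. Control probe sets (123 AFFX, 64 RPTR) were left out, and depth does not apply to arrays, whose number limits the precision.

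limma 3.58.1 in R 4.3.3 (lmFit, eBayes with trend) was fitted to 12 arrays with 4 groups and the label-prefix set as a term within each treatment (6 residual and about 4.02 prior degrees of freedom), with Benjamini-Hochberg adjustment. The fit was tested on simulated data. "At least" folds apply where a group lay below its array medians on all 3 arrays and hold those arrays at their medians, since detection calls were not used here. p-values rest on the spread within groups over all 12 arrays, not that of normal growth alone. This spread may be technical where plants shared a pot.

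Probe sets were named through the platform table and RefSeq (22436 with 1 gene, 95 with several), or by locus and description from the study's annotation of listed probe sets. Of 99 called, 68 were listed by the study for normal growth and 31 were not. Lists used RefSeq symbols and synonyms (3195 probe sets), with the brightest probe set of each gene. No sequence is printed. Named genes were OsNADK1, the qRT-PCR genes, the 15 highest and 15 lowest non-overlapping calls of equal sign in both sets, where annotated, other called genes with a described product, and up to 6 list members of smallest p. The members and lists were chosen with earlier results of these data known. Alternatives covered the set term, replicate block, arrays in the fit, normalization, filter, low values, variance model and each array left out.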

Additional observations from a re-analysis of the deposited data

Results flagged for a closer look

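Among the 64 reporter probe sets, which lie outside the comparison, 3 had signal above the array median on all 3 osnadk1 arrays and on 0 of the 3 WT arrays. On the brightest, osnadk1 arrays read 13.63, 12.70 and 12.83 and WT arrays 0.73, 2.49 and 2.64 (mean difference 11.1 on the log2 scale, at least 217-fold). The next read 10.31, 10.27 and 10.25 against 2.90, 4.60 and 3.03 (difference 6.76, at least 31.7-fold). On the third, osnadk1 arrays read 7.14, 6.48 and 7.31 and WT arrays 4.43, 0.48 and 3.43 (difference 4.20, at least 3.22-fold). These are signals in data that no comparison above uses, and the WT level is their background. The genes behind these probe sets are not named in the annotation used here.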

How the results depend on the processing

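With 3 arrays a group in unequal sets, and dimness known only relative to array medians, the count of calls was the least stable value. Against 99 called (35 higher, 64 lower), it was 45 (19 and 26) without a set term, 48 (19 and 29) with 1 set term over all arrays, 1206 (890 and 316) with set A alone and 639 (107 and 532) with set B alone. It was 24 (13 and 11) with the 6 arrays of normal growth and the set term, 5 (3 and 2) with those arrays and no set term, 167 (54 and 113) after centring on array medians, 19 (10 and 9) without a variance trend, and 1 (1 and 0) by an equal-variance test on the 6 arrays. Leaving out the normal-growth arrays of set A gave 479 (84 and 395) and those of set B 1258 (984 and 274). Leaving out single arrays gave 35 to 1782 calls, 15 to 1304 higher and 20 to 478 lower. Quantile normalization, no filter, a filter on the mean, a floor and a pseudocount kept the count within 1.5 times, at 104 to 120.

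Whether replicate numbers pair the samples could not be told, since same-numbered arrays share a set in replicates 1 and 3 but not in 2. Deviations of same-numbered arrays correlated at 0.20, -0.27 and 0.32 under normal growth, and a replicate block called 37 (14 and 23), with OsRSUS1 at -0.38.

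The 2-fold count of 1033 became 2877 with set A alone, 2205 with set B alone, 615 with 6 arrays and no set term, 2391 with no filter, 454 by the equal-variance test, and 2157 and 2852 without the normal-growth arrays of set A and set B, with 932 to 2918 on leaving out single arrays. The interaction count of 0 became 300 with set A alone, 383 with set B alone, and 285 and 326 without the normal-growth arrays of set A and set B, with 0 to 567 on leaving out single arrays. OsNADK1 stayed past the threshold except by the equal-variance test (-5.15, adjusted p = 0.43), and its difference was -5.70 to -4.77 on leaving out single arrays. OsRSUS1, at 0.28, turned to -0.38 without a set term, with 6 arrays and no set term and by the equal-variance test, to -1.10 with set B alone and without the normal-growth arrays of set A, to -0.16 without osnadk1 replicate 1 and to -1.10 without WT replicate 1, and was at most 1.66, without osnadk1 replicate 3. Of 57 named probe sets that passed the test, 0 changed sign under any alternative. The call was kept by 33 without a set term and by 28 with the replicate block. It was kept by 16 with the 6 arrays of normal growth and the set term, and by 5 with those arrays and no set term. Without a variance trend 11 kept it, and by the equal-variance test 1 did. Quantile normalization, no filter, a filter on the mean and a floor each kept all 57. The cause of these shifts was not tested.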
